A study of Homo sapiens with 8 samples.

Results

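The BCL2 family genes described here are the 10 members BCL2L1, BCL2, MCL1, BAX, BAK1, BCL2L11, PMAIP1, BBC3, BIK and BID, out of 60675 genes in the RNA-seq files. They were chosen by name and role: 3 are anti-apoptotic, 2 are effectors and 5 are BH3-only genes. All 10 were matched by symbol to an Ensembl identifier and all 10 passed the filter on low counts that kept 19499 genes. RNA-seq was carried out on H9 (WA09) human embryonic stem cells (hESCs), an established line from a human blastocyst, at 4 culture stages. P1 hESCs were at passage 40s, P2 at passage 100s, P3 at passage 200s and P4 at passage 300s, with 2 samples each. All 4 lines were untreated, grown in mTeSR1 medium on Matrigel without feeder cells and passaged with dispase. P1 to P4 are a single isogenic set and not separate derivations, so passage number and anything else that differs between the 4 cultures cannot be told apart. The study describes P3 and P4 hESCs as carrying a gain of 20q11.21, the region that holds BCL2L1, and assigns its survival trait to them, so P3 and P4 are set against P1 and P2 here.

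Proteins of the BCL2 family decide whether the mitochondrial outer membrane is opened during apoptosis. The effectors BAX and BAK1 form the pores that release cytochrome c. The anti-apoptotic proteins hold effectors and BH3-only proteins in check through a groove that binds the BH3 helix. BH3-only proteins are the sensors of stress: some bind the anti-apoptotic proteins, and some also activate BAX and BAK1 directly. Pluripotent stem cells are known to sit close to this threshold, and BCL-xL, the main product of BCL2L1, is known as a survival gene of long-term cultures.

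What the 10 members share in sequence is the BH3 core. The coding bases of this core are shown for 6 members on which the results turn, read from GRCh38 with the GENCODE 29 coding sequences, 5′ to 3′ on the coding strand of each gene. Capitals mark the 18 bases that code for the core from its leucine to its conserved aspartate.
BCL2L1: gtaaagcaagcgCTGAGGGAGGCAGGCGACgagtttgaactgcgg
MCL1: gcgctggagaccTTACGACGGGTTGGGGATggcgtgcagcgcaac
BAX: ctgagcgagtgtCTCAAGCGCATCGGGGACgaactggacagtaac
BAK1: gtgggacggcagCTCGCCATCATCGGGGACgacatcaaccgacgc
PMAIP1: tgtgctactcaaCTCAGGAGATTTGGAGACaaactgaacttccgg
BBC3: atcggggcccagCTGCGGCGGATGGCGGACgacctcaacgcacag

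Each of these stretches lies within 1 coding exon. They are at chr20:31721919-31721963 (minus strand) in BCL2L1, chr1:150578862-150578906 (minus) in MCL1, chr19:48955775-48955819 (plus) in BAX, chr6:33575384-33575428 (minus) in BAK1, chr18:59902661-59902705 (plus) in PMAIP1 and chr19:47226576-47226620 (minus) in BBC3. The protein pattern searched was a leucine, any 3 residues, a glycine or alanine, an aspartate and then an aspartate, glutamate, glycine, lysine or serine. Its last class holds just the residues that the members have there, so its presence in all 10 members was fixed by its definition. It was also present in 9.52% of the 19468 protein-coding genes with a complete coding sequence, so the pattern alone does not mark the family. For this share only the longest protein of each gene was searched, while all complete coding sequences of the members were. Over the 45 bases, pairs of members were identical at 13 (MCL1 and PMAIP1) to 30 (BAK1 and BIK) positions.

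The whole genes lie at chr20:31664452-31723989 (BCL2L1, ENSG00000171552), chr18:63123346-63320128 (BCL2, ENSG00000171791), chr1:150574551-150579738 (MCL1, ENSG00000143384), chr19:48954815-48961798 (BAX, ENSG00000087088), chr6:33572547-33580293 (BAK1, ENSG00000030110), chr2:111119378-111168447 (BCL2L11, ENSG00000153094), chr18:59899948-59904306 (PMAIP1, ENSG00000141682), chr19:47220822-47232766 (BBC3, ENSG00000105327), chr22:43110748-43129712 (BIK, ENSG00000100290) and chr22:17734138-17774770 (BID, ENSG00000015475). BAX and BBC3 therefore share chromosome 19, BCL2 and PMAIP1 share chromosome 18, and BIK and BID share chromosome 22. Exons of 5 members overlap those of other genes. The antisense gene ABALON over BCL2L1 was listed at 39.1 to 143 expected counts, far below BCL2L1 itself (1962 or more). The noncoding gene MIR4435-2HG over BCL2L11 was listed at 72.9 to 225, where BCL2L11 itself had 607 to 1130. Whether counting used the strand is not given in the sources used here, so reads in these overlaps cannot be assigned with certainty.

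The 8 libraries held 26874899 to 38095600 counts, and 5.89 to 18.5% of counts came from mitochondrial genes. One library each of P1 (replicate 2), P3 (replicate 1) and P4 (replicate 1) stood apart at 17.2 to 18.5%, while the other 5 held 5.89 to 9.84%. TPM values of nuclear genes fall as this share rises, so levels across samples are given as CPM (library totals scaled by the TMM method) and TPM is used to compare genes and to form ratios within a sample. All 12 pluripotency markers, including POU5F1, SOX2 and NANOG, were at or above 1 TPM in all 8 samples. The 18 markers of differentiated or feeder cells summed to 102 to 158 TPM in P1 and P2 and 61.0 to 73.6 TPM in P3 and P4, and COL1A1 alone supplied 51.3 to 150 TPM. Of these 18 markers, 2 to 5 reached 1 TPM in a sample and 1 to 5 were at 0. Between P3 and P4 and P1 and P2, edgeR called 0 of the 12 tested genes of each list, with 4 pluripotency and 5 other markers at an unadjusted p under 0.05, and DESeq2 called 1 gene of each list. The part of these markers in the results below was not tested. In such bulk samples, fewer cells of a type and less RNA per cell cannot be told apart.

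At the level of transcripts per length, MCL1, BAX and PMAIP1 led the family. The means over the 8 samples were 197 TPM for MCL1 (SD 57.4), 177 for BAX (SD 73.5) and 177 for PMAIP1 (SD 79.1), followed by BCL2L1 with 72.3 (SD 30.6). BAK1 had a mean of 32.4 TPM, BID 29.9, BBC3 20.8, BCL2L11 7.33 and BIK 3.28, and BCL2 was last with 0.780. Most neighbours in this order overlapped in range. Only PMAIP1 against BCL2L1 (lowest PMAIP1 112.63 TPM, highest BCL2L1 112.21 TPM) and BIK against BCL2 did not. BCL2, the founding anti-apoptotic gene of the family, was thus listed at 0.460 to 1.24 TPM (69 to 140 expected counts) in these hESCs.

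The first question was whether family members differed between the late lines, P3 and P4 hESCs, and the early lines, P1 and P2 hESCs. BCL2L1 was the one member that passed the threshold of an adjusted p under 0.01: it was 2.39-fold higher in P3 and P4. No effector and no BH3-only gene passed, which does not show that they were unchanged. Thus 1 of 10 members passed, against 2.45% of all 19499 genes (1.19% higher and 1.26% lower). The same member also met the cutoffs of the study's DEG rule, which adds an absolute log2 fold change above 1 (2.2% of all genes). The cutoffs were applied here to the edgeR fit, while the study used DESeq2. The median log2 fold change of the 10 members was 0.17, beside 0.01 over all genes tested.

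**Figure D1:**
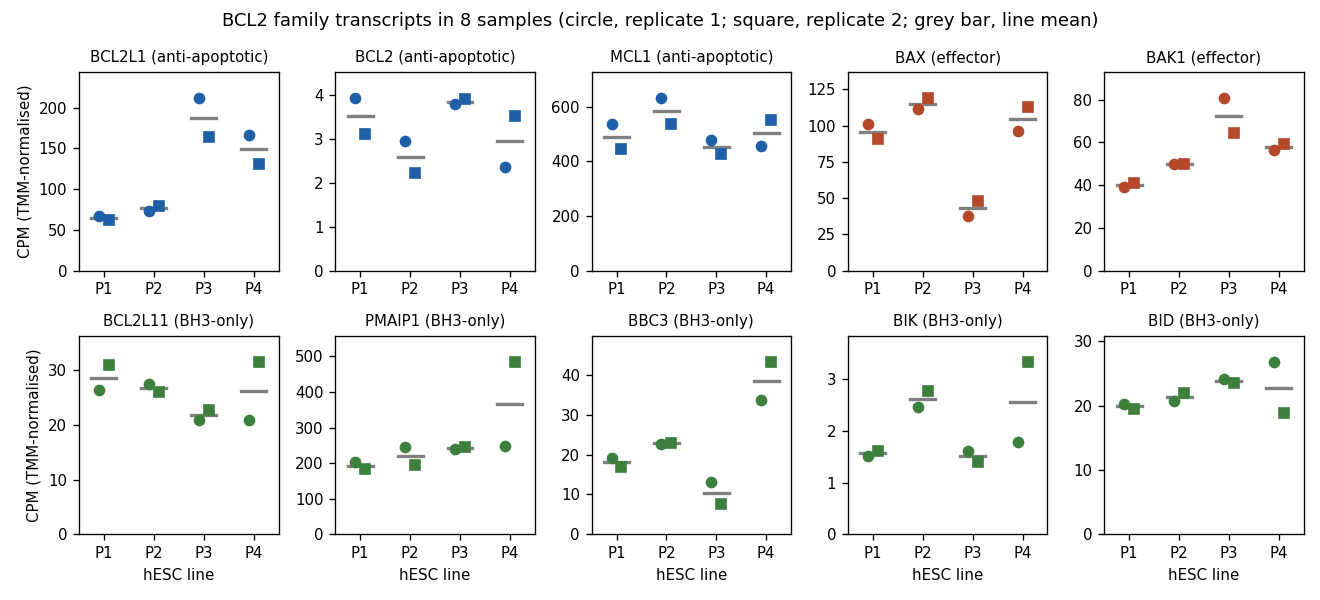
Level of each of the 10 members in CPM (y axis, from 0, a scale for each gene) by hESC line (x axis), with circles for replicate 1, squares for replicate 2 and grey bars for the mean of each line. BCL2L1 lay at 61.8 to 79.6 CPM in P1 and P2 and at 131 to 212 CPM in P3 and P4, BAX and BBC3 were lowest in P3, and replicate 2 of P4 stood out for PMAIP1 at 485 CPM.

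Among the anti-apoptotic genes, BCL2L1, which encodes BCL-xL, was measured at 67.0 and 61.8 CPM in P1, 73.0 and 79.6 in P2, 212 and 164 in P3, and 166 and 131 in P4. All 4 samples of P3 and P4 lay above all 4 of P1 and P2. Its log2 fold change was 1.26 (SE 0.16, adjusted p = 0.0012, edgeR's quasi-likelihood test, n = 4 samples of 2 lines against 4 of 2 lines). With only the 5 libraries under 15% mitochondrial counts it was 1.01 (adjusted p = 0.036, edgeR) and no longer passed, with 2 samples in place of 4 for P3 and P4 and 3 for P1 and P2. It passed without each single library in turn, with log2 fold changes of 1.13 to 1.36.

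MCL1, a short-lived anti-apoptotic protein that binds BAK1 and PMAIP1, was measured at 535 and 445 CPM in P1, 630 and 536 in P2, 477 and 428 in P3, and 456 and 550 in P4. The groups overlapped, and the difference of -0.17 on the log2 scale (SE 0.15, adjusted p = 0.50, edgeR) did not exceed the spread between samples. BCL2 was at 2.21 to 3.93 CPM in P1 and P2 and 2.37 to 3.90 CPM in P3 and P4, with a log2 fold change of 0.16 (SE 0.26). At about 3 CPM its spread was wider than that of MCL1.

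Among the effectors, BAK1 was measured at 39.0 and 40.8 CPM in P1, 49.9 and 50.04 in P2, 80.7 and 64.3 in P3, and 56.3 and 59.2 in P4. All P3 and P4 samples lay above all P1 and P2 samples, as for BCL2L1. These were the 2 members without overlap in the upward direction, where 8.38% of all genes had none, and no member was without overlap in the downward direction (9.19% of all genes). The log2 fold change of BAK1 was 0.54 (SE 0.16), and it did not pass (adjusted p = 0.060, edgeR). BAX was measured at 101 and 90.9 CPM in P1, 112 and 119 in P2, 37.98 and 48.2 in P3, and 96.2 and 113 in P4. P3 was low and P4 was at the level of P1 and P2, and the pooled log2 fold change was -0.52 (SE 0.30, adjusted p = 0.31, edgeR).

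Among the BH3-only genes, PMAIP1, whose product NOXA binds MCL1, was measured at 204 and 183 CPM in P1, 246 and 195 in P2, 239 and 247 in P3, and 249 and 485 in P4. A single P4 sample stood above the other 7, and the log2 fold change of 0.56 (SE 0.23, adjusted p = 0.16, edgeR) fell to 0.25 without that sample. BBC3, whose product PUMA binds all anti-apoptotic members, was measured at 19.2 and 17.0 CPM in P1, 22.7 and 22.8 in P2, 13.2 and 7.67 in P3, and 33.6 and 43.2 in P4. P3 lay below all other samples and P4 above them, so the pooled log2 fold change was 0.26 with an SE of 0.43. The remaining members showed small differences. BCL2L11, which encodes BIM, spanned 20.8 to 31.5 CPM over the 8 samples (log2 fold change -0.21, SE 0.16). BID, which caspase-8 cleaves to link death receptors to mitochondria, spanned 18.8 to 26.8 CPM (0.18, SE 0.15), and BIK, found at the endoplasmic reticulum, spanned 1.39 to 3.33 CPM (-0.05, SE 0.34).

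Single lines were then compared. No member passed between P2 and P1 hESCs: 0 of 10 did so with edgeR (0% of all genes), 0 had an unadjusted p under 0.05 (9.14% of all genes), and 0 passed with DESeq2 or limma. The log2 fold changes ran from -0.45 (BCL2) to 0.74 (BIK), and the smallest adjusted p of edgeR was 0.58. BCL2L1 stood at 0.24 (SE 0.20). The comparisons of P2, P3 and P4 with P1 share the 2 samples of P1.

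In P3 hESCs compared with P1 hESCs, BCL2L1 rose and BAX fell. These 2 of 10 members passed, against 4% of all genes (1.32% higher and 2.68% lower). BCL2L1 was 2.91-fold higher (log2 fold change 1.54, SE 0.21, adjusted p = 7.6e-04, edgeR, 2 samples against 2). BAX was 2.23-fold lower (-1.15, SE 0.20, adjusted p = 0.0033, edgeR). BAK1 had a log2 fold change of 0.86 (SE 0.19, adjusted p = 0.013, edgeR) and BBC3 one of -0.80 (SE 0.26, adjusted p = 0.067, edgeR), and neither passed. DESeq2 also called BAK1. The fall of BAX did not pass without either P1 sample or without replicate 1 of P3 (log2 fold changes of -1.22 to -0.99), and BCL2L1 did not pass without replicate 2 of P1 (1.49, adjusted p = 0.020, edgeR). Replicate 1 of P3, the library with 18.4% mitochondrial counts, had the lower BAX level of its line. So did replicate 2 of P1 (18.5%, 90.9 CPM against 101) and replicate 1 of P4 (17.2%, 96.2 CPM against 113). With only the 5 libraries under 15%, the log2 fold change of BAX was -1.06, with 1 sample each of P1 and P3. Of the 12 tested markers of differentiated or feeder cells, EOMES was lower and FOXA2 higher in P3 than in P1, and the part of these cells was not tested.

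In P4 hESCs compared with P1 hESCs, 1 of 10 members passed (2.12% of all genes, 0.959% higher). BCL2L1 was 2.31-fold higher (log2 fold change 1.21, SE 0.21, adjusted p = 0.0046, edgeR). Its adjusted p rose to between 0.010 and 0.077 when either P1 sample, either P4 sample or replicate 2 of P2 was left out, while the log2 fold change stayed between 1.02 and 1.37. BBC3 had a log2 fold change of 1.09 (SE 0.26, adjusted p = 0.030, edgeR) and PMAIP1 one of 0.93 (SE 0.27, adjusted p = 0.067, edgeR). DESeq2 called BBC3 as well. BAX was at 0.13 (SE 0.19, adjusted p = 0.75, edgeR), and its P1 and P4 samples overlapped.

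Among the members, BAX and BBC3 passed between the late lines, and genes outside the family passed there too. In P4 hESCs compared with P3 hESCs, 2 of 10 members passed, both higher in P4, against 0.815% of all genes (0.554% higher). BAX was 2.43-fold higher (log2 fold change 1.28, SE 0.20, adjusted p = 0.0049, edgeR) and BBC3 was 3.69-fold higher (1.88, SE 0.27, adjusted p = 0.0027, edgeR). BCL2L1 was at -0.34 (SE 0.20, adjusted p = 0.39, edgeR), BAK1 at -0.33 (SE 0.19) and PMAIP1 at 0.60 (SE 0.27, adjusted p = 0.26, edgeR). The call of BAX held without replicate 1 of P4 but was lost without any other single library (adjusted p of 0.010 to 0.045, edgeR). The call of BBC3 was lost without replicate 2 of P3 or replicate 2 of P4 (adjusted p of 0.017 and 0.026, edgeR). Of the 12 tested markers of differentiated or feeder cells, FOXA2 was lower in P4 than in P3 (log2 fold change -4.25, SE 0.50, adjusted p = 7.8e-04, edgeR), at 6.76 and 6.33 CPM in P3 and 0.549 and 0.135 in P4, and the part of these cells was not tested.

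**Figure D2:**
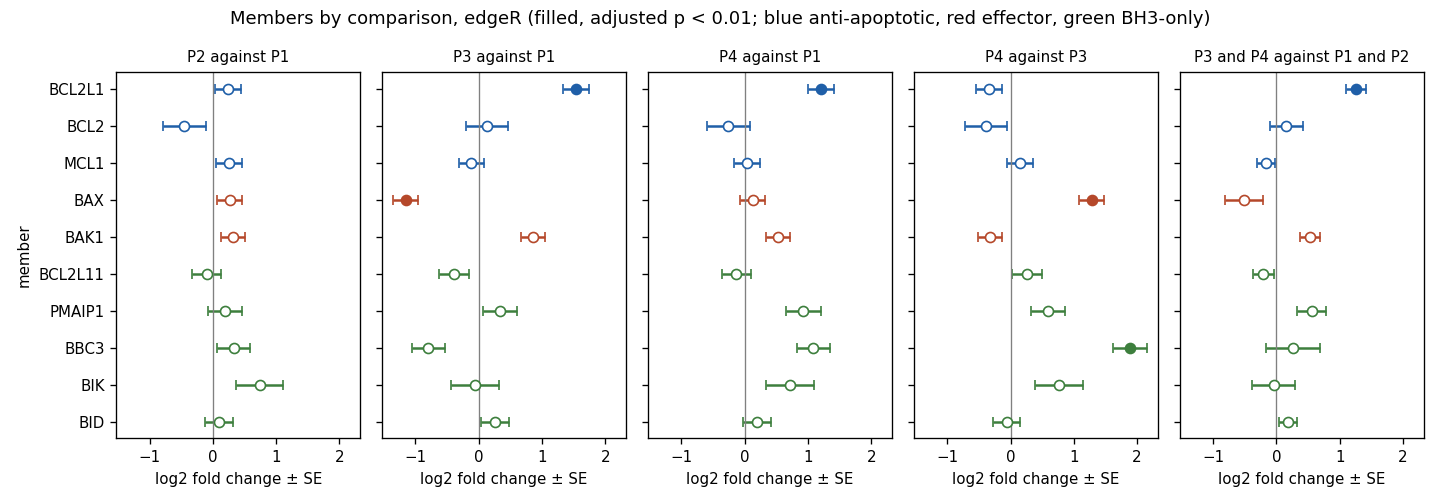
Log2 fold change (x axis) of each member (y axis) in the 5 comparisons, with bars for the standard error and filled symbols for an adjusted p under 0.01 in edgeR. BCL2L1 was filled at 1.54 for P3 against P1, 1.21 for P4 against P1 and 1.26 for the pooled comparison, while BAX was filled at -1.15 for P3 against P1 and at 1.28 for P4 against P3.

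The balance of the classes was then formed from TPM within each sample, as a description with no test. The 3 anti-apoptotic genes summed to 180 to 328 TPM in P1 and P2 and 226 to 333 TPM in P3 and P4, with means of 269.9 and 271.0 TPM. The class sums of the groups overlapped while its makeup did not. BCL2L1 made up 16.1 and 17.96% of the class in P1, 15.3 and 17.8% in P2, 44.0 and 39.6% in P3, and 39.0 and 27.9% in P4. The mean share was 16.8% (SD 1.31, n = 4) in P1 and P2 and 37.6% (SD 6.85, n = 4) in P3 and P4, without overlap. MCL1 supplied nearly all of the rest, since BCL2 was at most 1.24 TPM.

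The ratio of anti-apoptotic to effector TPM was 1.08 and 1.08 in P1, 1.17 and 1.10 in P2, 2.49 and 1.92 in P3, and 1.28 and 1.19 in P4. P3 stood apart, and P4 lay just above P2. On the log2 scale the ratio was 0.57 higher in P3 and P4 than in P1 and P2, and 0.37 higher without replicate 1 of P3. Within it, BCL2L1 over BAX was 0.194 and 0.223 in P1, 0.203 and 0.221 in P2, 1.85 and 1.06 in P3, and 0.596 and 0.385 in P4. BCL2L1 exceeded BAX in TPM in both P3 samples and in no other sample.

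The ratio of anti-apoptotic to BH3-only TPM was 1.28 and 1.11 in P1, 1.26 and 1.46 in P2, 1.41 and 1.20 in P3, and 1.10 and 0.741 in P4. The groups overlapped, and the lowest value was that of replicate 2 of P4, in which PMAIP1 reached 360 TPM. The difference of P3 and P4 from P1 and P2 was -0.23 on the log2 scale. It turned to 0.26 when each gene was given equal weight as mean log2(TPM + 1), and PMAIP1 held most of the BH3-only sum in every sample. BCL2L1 over the BH3-only sum was 0.206 and 0.200 in P1, 0.193 and 0.260 in P2, 0.618 and 0.474 in P3, and 0.430 and 0.207 in P4. Both P3 samples and replicate 1 of P4 lay above all P1 and P2 samples, and replicate 2 of P4 did not.

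**Figure D3:**
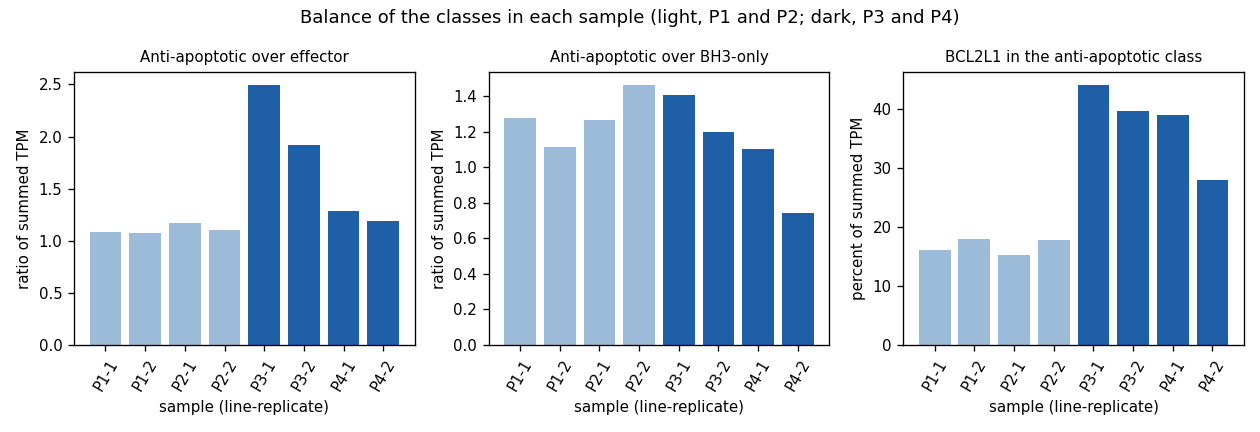
Ratio of summed TPM of anti-apoptotic to effector genes (left), of anti-apoptotic to BH3-only genes (middle) and BCL2L1 as percent of the anti-apoptotic TPM (right) in each of the 8 samples (x axis), with light bars for P1 and P2 and dark bars for P3 and P4. The ratio to effectors reached 2.49 and 1.92 in P3 and was 1.08 to 1.28 elsewhere, the ratio to BH3-only genes ran from 0.741 to 1.46, and BCL2L1 rose from between 15.3 and 17.96% of its class in P1 and P2 to between 27.9 and 44.0% in P3 and P4.

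The length that RSEM gives a gene, the mean of its transcripts weighted by their abundance, was used as a readout of isoform use. BCL2L1 was at 2225 and 2228 bases in P1, 2091 and 1983 in P2, 2098 and 2062 in P3, and 2043 and 1993 in P4. Both P1 samples were longer than the other 6, and P2, in which the level of BCL2L1 had not passed the test, was among the shorter ones. BCL2 varied most, from 3277 to 6339 bases, at its low counts. MCL1 spanned 2804 to 3568 bases, BID 954 to 1248, and BAK1 stayed within 2151 to 2159. BIK has a single transcript in the annotation and was at 953 bases in every sample. No transcript was resolved here, so the balance of BCL-xL and BCL-xS products of BCL2L1 was not measured.

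By the pattern over the 8 samples, the genes most like BCL2L1 were BEX2, SYN1, CRYBA4, SCN3A and ENSG00000226668. The root mean square difference of their centred log2 CPM from that of BCL2L1 was 0.11, 0.12, 0.12, 0.13 and 0.13. BEX2 had mean levels of 35.8 CPM in P1 and P2 and 83.2 CPM in P3 and P4. In the same order, SYN1 was at 5.57 and 13.1 CPM and CRYBA4 at 1.20 and 3.40 CPM. SCN3A was at 0.0746 and 1.03 CPM and ENSG00000226668 at 0.219 and 1.09 CPM. The mean of SCN3A in P1 and P2 was below the floor of 3 counts (0.0787 to 0.112 CPM). At such levels the constant added to CPM before the log reduces differences. The likeness of SCN3A and ENSG00000226668 to BCL2L1 therefore depends on that constant.

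Genes around the members were read from lists. Of 11 further BCL2 family genes 9 were tested, BCL2L10 and BCL2A1 being at 0 to 0.170 TPM. In P3 and P4 against P1 and P2, 0 of the 9 passed with edgeR, 2 had an unadjusted p under 0.05, and 0 passed with DESeq2 or limma. HRK, a BH3-only gene named here after its values were seen, was at 4.50 and 5.45 CPM in P1, 6.99 and 7.76 in P2, 1.07 and 0.976 in P3, and 4.26 and 4.41 in P4. It was lower in P3 than in P1 (log2 fold change -2.28, SE 0.31, adjusted p = 8.0e-04, edgeR) and higher in P4 than in P3 (2.08, SE 0.31, adjusted p = 0.0036, edgeR).

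Of the inhibitor of apoptosis genes (XIAP and the BIRC genes), the outer membrane partners such as VDAC2 and MTCH2, and the ubiquitin enzymes that control MCL1 and NOXA, 0 passed with edgeR, DESeq2 or limma in P3 and P4 against P1 and P2, with 1 gene of each list at an unadjusted p under 0.05. Of the 9 regulators of BH3-only genes, 0 passed with these tools in that comparison and 2 had an unadjusted p under 0.05. In P3 against P1, 2 of the 9 were lower with edgeR, 2 passed with DESeq2 and 0 with limma. These were DDIT3, a stress response transcription factor (log2 fold change -2.03, SE 0.42, adjusted p = 0.0097, edgeR), and MYC (-1.56, SE 0.28, adjusted p = 0.0042, edgeR), named here after their values were seen. In P4 against P3, 0 of the 9 passed with edgeR, 4 had an unadjusted p under 0.05, 2 passed with DESeq2 and 0 with limma. DDIT3 was there at 2.42 (adjusted p = 0.011, edgeR) and MYC at 1.16 (adjusted p = 0.040, edgeR).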

How the data were processed

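Stranded mRNA libraries of the 4 hESC lines, 2 samples each, were sequenced. Per the labels and the submitters' processing notes, the authors used FastQC, Trim Galore, STAR 2.7.3a and RSEM 1.3.3 on GRCh38 and deposited, per sample and gene, an expected count that is not normalized and a TPM value. The annotation release is not given in the sources used here. After rounding, expected counts were tested with edgeR 4.0.16 in R 4.3.3 (TMM, filterByExpr by line, quasi-likelihood test, Benjamini-Hochberg over 19499 genes). P3 and P4 were compared with P1 and P2 as 2 groups of 4, and single lines in a model of 4 groups of 2. The comparison of 2 groups had no term for line, so the 2 samples of a line counted as independent. A gene was called at an adjusted p under 0.01. No label states separate cultures, so p-values measure only the spread between these samples, which may be technical. A floor of 3 counts was 0.0787 to 0.112 CPM. Alternatives used DESeq2 1.42.0, which the study names, and limma 3.58.1.

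The members and gene lists were chosen with earlier results of these data known. All 10 members were named, with listed genes passing in P3 and P4 against P1 and P2 (at most 6 a list) and the 5 genes most like BCL2L1 (log2(CPM + 0.5), centred). Symbols matched 56558 identifiers and GENCODE 29 matched 57055. Tested on simulated data of 19499 genes, edgeR recovered 76% of genes changed 2-fold in the comparison of P3 and P4 with P1 and P2 and 26% in P4 against P3. For genes changed 4-fold it recovered 100% and 96%. The simulation had no spread between the lines of a group, unlike the data. Recovery for P3 and P4 against P1 and P2 may thus be too high. Only genes above the levels of BCL2 and BIK were changed in it. Some results of the listed genes are not reported here.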

Additional observations from a re-analysis of the deposited data

Results flagged for a closer look

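PMAIP1 in P3 and P4 hESCs was set apart by 1 sample: replicate 2 of P4, at 485 CPM, had a gap to its nearest neighbour of 0.941 of the range of the 4 samples on the log2 scale, above Dixon's 95% limit for 4 samples. Of 26 groups of 4 samples checked, 1 was flagged, where chance gives about 1 in 20 (1.3 groups).

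BAX differed between the late lines, with a log2 fold change of 1.28 in P4 against P3. BBC3 differed in the same way, with 1.88. Each difference was tested directly between the lines with edgeR. Against P1, BAX was at -1.15 in P3 and 0.13 in P4, and BBC3 was at -0.80 in P3 and 1.09 in P4, of which the value of BAX in P3 passed.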

How the results depend on the processing

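Alternative log2 fold changes were tallied for all 10 members in P3 and P4 against P1 and P2. In P3 against P1, P4 against P1 and P4 against P3, the tally took only BCL2L1, BAX, BAK1, BBC3 and PMAIP1. P2 against P1 was left out of it. Of these values, 396 kept direction and side of the threshold, 26 no longer passed, 14 newly passed and 14 turned direction. In P3 and P4 against P1 and P2, 2 members passed in the 4-group model (BAX joined BCL2L1) and 0 with only the 5 libraries under 15% mitochondrial counts, an alternative chosen after seeing the data, as was the mitochondrial share as covariate. In P3 against P1, BAK1 joined BCL2L1 and BAX with DESeq2, without the filter on low counts and with the mitochondrial covariate. In the same comparison, 1 member passed with either limma fit on TPM and 0 to 2 when a library was left out. In P4 against P1, 2 passed at an adjusted p under 0.05, 2 with DESeq2, 3 without a filter on low counts, 3 with the 5 libraries (single lines then take their spread from the P2 samples alone), 0 with log2(TPM + 0.1), and 0 to 2 when a library was left out. In P4 against P3, 0 passed with log2(TPM + 1), 1 with log2(TPM + 0.1), 1 with only the 4 samples compared, and 0 to 2 when a library was left out. Where no value is given for it, the cause was not tested. Genes of the other lists passing (1) became 3 at an adjusted p under 0.05, 4 with DESeq2, 2 without the filter, 0 with the replicate block, 0 with either TPM fit, 7 in the 4-group model and 0 to 1 when a library was left out.

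Turned directions concerned members that did not pass: BCL2 (-0.13 and -0.26 with log2(TPM + 1) and log2(TPM + 0.1)), BCL2L11 (0.016 with the 5 libraries), BBC3 (-0.18 and -0.20 on TPM, -0.021 in the 4-group model, -0.17 to 0.55 when a library was left out) and BIK (0.0503 with the covariate, 0.0531 with the 5 libraries, -0.39 to 0.12 when a library was left out). With a pseudocount of 0.1, the TPM fit put the median of all genes at -0.14 in P3 and P4 against P1 and P2, beside 0.01 with edgeR. The same median was 0.19 in P2 against P1, -0.13 in P3 against P1, 0.02 in P4 against P1 and 0.15 in P4 against P3. The anti-apoptotic to effector difference was 0.41 as mean log2(TPM + 1) and 0.37 to 0.73 when a library was left out, and the BH3-only difference turned to 0.26. Replicate numbers gave correlations of -0.12 to 0.18 between lines and were not taken as pairs. In the fit with the replicate block, 367 genes passed in P3 and P4 against P1 and P2 in place of 478, of which 359 were shared, and no call of a member changed. Over all genes, DESeq2 called 1519 in that comparison, 1828 in P3 against P1 (780 with edgeR), 1022 in P4 against P1 (413) and 701 in P4 against P3 (159). The fit without a filter called 869, 2101, 1351 and 1024, the fit of log2(TPM + 1) 288, 215, 176 and 77, and the 4-group model 1181 in the first.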
